A study of Mus musculus with 4 samples.

Results

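The CD45+ cells of the mouse mammary gland were compared between nulliparous and gestating animals in the earlier of 2 pooled droplet RNA libraries. Cells were taken as droplets with at least 500 unique molecular identifiers (UMIs, each standing for 1 captured RNA molecule) from at least 300 genes, of which no more than 10% were mitochondrial. A cell was assigned to a sample by its hash tag, an antibody that carries a short DNA barcode: of the 4 tags named in the deposited sheet of that library, the tag with most counts had to reach 10 counts and at least 2 times the next tag. This gave 7160 Nulliparous cells (tag HT4) and 4913 Gestation cells (tag HT5), 12073 of the 42781 cells kept in both libraries. Doublet calls were removed, as were all cells of clusters in which at least 50% of cells were called doublets. This left 6474 Nulliparous and 4614 Gestation cells, which were analysed.

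Nulliparous animals have not borne young, and the Gestation sample is called Pregnant in the library's title. Glands of both groups were digested with collagenase and underwent red blood cell lysis, and the cells are labelled CD45+, the surface mark of white blood cells. The labels give no strain, age, day of gestation or number of animals for either tag. Each group is therefore 1 pooled sample with no replicate, so no p-value or replicate spread can be had. The intervals below are exact 95% intervals that cover counting error only, and a difference outside them is a difference between these samples of cells, not shown to be one between the conditions.

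In pregnancy the mammary epithelium branches and builds the alveoli that later make milk. The gland's immune cells sit in several places: macrophages along the ducts, other macrophages in the connective tissue, and lymphocytes in and beneath the epithelium and in the blood and lymph that pass through. Naive T cells carry homing receptors such as Ccr7 and recirculate, while resident T cells, NK cells and type 1 innate lymphoid cells hold on to tissue through integrins such as Itgae (CD103) and Itga1 (CD49a) and express granzymes and chemokines.

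The tag barcodes are shown because every value below rests on telling these apart. Capitals mark the bases that differ between the tags, at 12 of 15 positions.
HT4, Nulliparous: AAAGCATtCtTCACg
HT5, Gestation: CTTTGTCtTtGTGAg
The median cell assigned to Nulliparous carried 134 counts of its own tag, and the median cell assigned to Gestation carried 69. In cells of either sample the median count of the other's tag was at most 3. A second tag caller, HTODemux, called more than 1 tag on 8.96% of the analysed Nulliparous cells and on 4.23% of the analysed Gestation cells.

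The earlier library held 56300251 UMIs, and 87.6% of its 21604 kept cells could be assigned to a tag. The Nulliparous cells held 13292675 UMIs (median 1459 a cell) and the Gestation cells 7464415 (median 1212 a cell). Scrublet called 9.53% of Nulliparous and 6.05% of Gestation cells doublets. The libraries shared 139 cell barcodes. Milk protein and immunoglobulin UMIs were found in all classes of cells: B-like cells, for example, held 1.79 milk protein UMIs a cell in Nulliparous and 2.19 in Gestation.

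The broad makeup of the 2 samples differed little. T and innate lymphocytes were 59.96% (58.8 to 61.2) of Nulliparous and 60.99% (59.6 to 62.4) of Gestation cells, a difference of 1.03 percentage points whose interval (-0.82 to 2.87) includes 0. B lineage cells were 20.1% against 17.3%, 2.86 points lower in Gestation (interval of the difference -4.31 to -1.39). Myeloid cells were 19.4% against 21.1%, 1.68 points higher in Gestation (0.17 to 3.21). That myeloid difference took the other sign, -0.44 points, when a tag of at least 20 counts and 3 times the next was required. It was 3.64 points when cells with markers of another lineage were left out.

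Within the lymphocytes the makeup differed more. Classes named from markers are called "-like", and clusters without enough markers are called by their leading genes. T-like cells (Trac, Lat, Cd3d) were 31.4% (30.3 to 32.6) of Nulliparous but 15.8% (14.8 to 16.9) of Gestation cells. A cluster led by Cd7, Gzmb (granzyme B) and Itgae, also marked by Itga1, Gzma and Xcl1, was 10.9% (10.1 to 11.6) of Nulliparous and 25.4% (24.1 to 26.7) of Gestation cells. NK-like cells (Ncr1, Eomes, Klra8, Prf1) were 5.33% (4.79 to 5.90) against 12.5% (11.5 to 13.5), 2.34-fold more in Gestation. Since genes that define these clusters also differed between the samples, the cells were clustered again without the naive, residency, cytotoxic and cell cycle genes. T-like cells were then 32.0% against 16.6%, the Gzmb/Itgae cells 12.0% against 24.4% and NK-like cells 6.11% against 13.9%. With finer clusters (resolution 2.0) fewer cells could be named, and the differences were smaller: 17.4% against 12.9% for T-like and 7.73% against 13.1% for Gzmb/Itgae cells.

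Among the other classes, macrophage-like cells (C1qa, C1qb, Apoe) were 6.24% (5.66 to 6.86) of Nulliparous and 11.4% (10.5 to 12.4) of Gestation cells, 1.83-fold more. Migratory dendritic cell-like cells (Fscn1, Ccl22, Il4i1), which carry antigen to lymph nodes, were 80 of the Nulliparous and 12 of the Gestation cells, 1.24% (0.98 to 1.54) against 0.26% (0.13 to 0.45). A cluster led by the cell division genes H1f5, Top2a and Cenpf had 274 Nulliparous and 49 Gestation cells, 4.23% against 1.06%. A cluster led by Ccr9, Cd8b1 and Dapl1 had 96 and 15 cells, and the myeloid cluster led by Retnla, Lyz1 and Fn1 had 147 and 50. B-like cells were 16.7% against 14.2%. For plasma-like cells (3.46% against 3.06%), monocyte-like cells (3.52% against 3.77%) and type 1 dendritic cells (1.62% against 1.67%) the interval of the difference included 0.

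The later library also holds a Gestation sample, of 2568 analysed cells, which was clustered apart from the earlier cells. T and innate lymphocytes were 74.9% (73.2 to 76.6) of it against 61.0% of Gestation in the earlier library, myeloid cells 9.89% (8.76 to 11.1) against 21.1%, and B lineage cells 14.3% against 17.3%. The names of its clusters do not line up with those of the earlier library, so classes were matched by kind of cluster, a choice made after the data were seen. T-like cells without the cluster led by division genes were 49.5% (47.5 to 51.4) of the later Gestation sample, against 15.8% of Gestation and 31.4% of Nulliparous in the earlier one. The cluster led by division genes, which carried the T-like name in the later library and no name in the earlier, was 4.79%, against 1.06% and 4.23%. In each library 3 clusters scored highest for macrophage markers with a score of at least 1, and of those of the later library the Cd209f-led and the Mmp12-led were unnamed. Together they were 2.96% (2.34 to 3.69) of the later Gestation sample, against 11.4% and 6.24%. The Gzmb/Itgae cells were 8.53% (7.48 to 9.68) of it, against 25.4% and 10.9%. NK-like cells were 3.19%, or 10.4% with an unnamed cluster that held Ncr1 and Klrb1c among its leading genes, so that no order is read for them. The cells of the later sample carried a weak tag, with a median of 15 counts and 71.5% of cells under 20, against 3.34% of the earlier Gestation cells, and were deeper (median 3087 UMIs a cell). Library, tag strength and animals cannot be told apart in that difference.

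**Figure D1:**
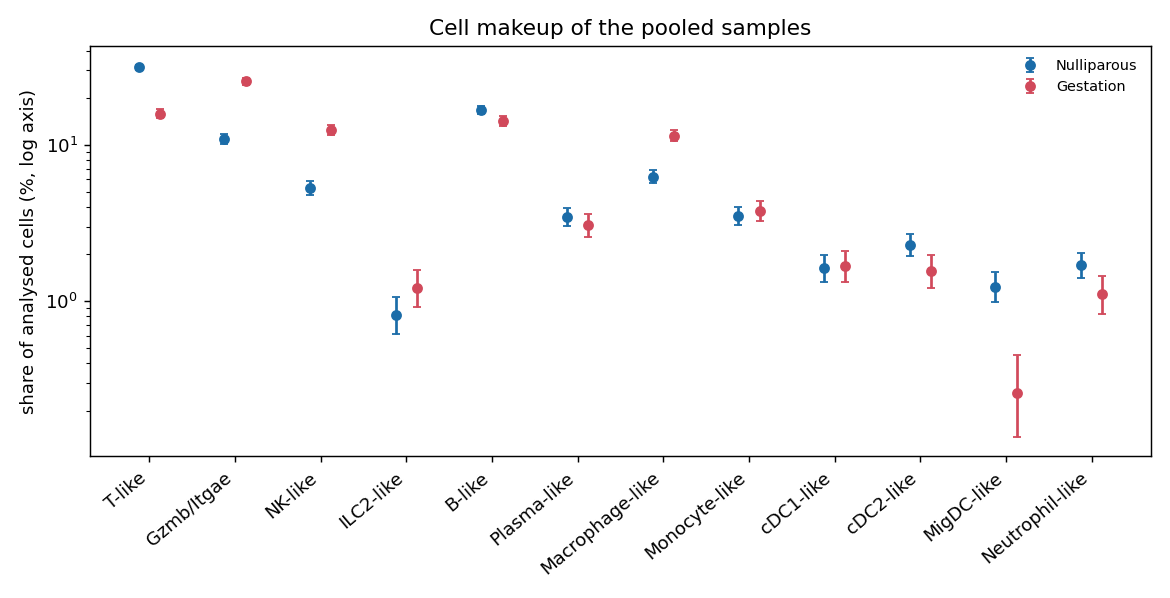
Share of analysed cells (percent, log axis) in each class for Nulliparous (blue) and Gestation (red). Points are shares of 1 pooled sample and bars are exact 95% binomial intervals, which cover counting error only. T-like cells were 31.4% against 15.8%, and macrophage-like cells 6.24% against 11.4%.

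Most of the marker genes given here, counted in single cells, had the same order as the classes. To hold depth equal, every cell was thinned to 500 UMIs, which no analysed cell was too shallow for. Among T and innate lymphocytes, a UMI of the chemokine gene Ccl5 was found in 46.0% of Nulliparous and 79.8% of Gestation cells. Before thinning these shares were 54.3% and 84.5%. In thinned B-like cells, taken as a background, they were 5.10% and 5.80%. The source of the Ccl5 UMIs in B-like cells was not tested. Lef1, a transcription factor of naive T cells, was found in 8.66% against 3.52%. Cd8b1, which marks conventional CD8 T cells, was found in 10.1% against 5.37%, and Cd4 in 3.25% against 1.74%. The NK receptor gene Ncr1 was found in 4.04% against 9.38%, and Itgae in 7.29% against 11.7%. The share of cells with Cd3e, part of the T cell receptor complex, was 15.6% in Nulliparous and 16.1% in Gestation. Cd3e thus did not follow the lower share of T-like cells in Gestation. B-like cells held at most 0.61% for each of Lef1, Cd8b1, Cd4, Ncr1, Itgae and Cd3e.

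Gene levels were compared as UMIs summed over all cells of a lineage, per 10000 UMIs, among genes with at least 50 UMIs over both samples. In T and innate lymphocytes 442 of 9586 genes, or 4.61%, differed by at least 2-fold, 186 of them (1.94%) higher in Gestation and 256 (2.67%) higher in Nulliparous. The median gene's log2 ratio of Gestation over Nulliparous was 0.10, and trimmed-mean (TMM) scaling lowered it by 0.13. These sums mix classes whose shares differ between the samples, so the same genes are also given below within classes and clusters.

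The naive and recirculating genes were lower in Gestation, with a median log2 ratio of -0.91 and 5 of 10 at least 2-fold lower. Satb1, a chromatin organiser of naive T cells, was at 3.67 (3.51 to 3.83) per 10000 in Nulliparous and 2.28 (2.12 to 2.46) in Gestation. Tcf7, which encodes TCF-1, was at 3.33 against 1.90. Il7r, the receptor that keeps naive cells alive, was at 3.77 against 3.25. Klf2, a transcription factor that drives exit from tissue, was the only member above 0 on the log2 scale, at 3.48 against 3.76. Igfbp4, a growth factor binding protein gene on chromosome 11 (GRCm38 positions 99040005 to 99052655), had the largest difference of the list, with 691 UMIs against 66, or 1.25 against 0.22 per 10000, a log2 ratio of -2.49. For all 10 naive genes the Gestation level was neither the highest nor the lowest of the 4 samples of the library. Germ-free (the sheet's name for the sample on tag HT2, which the library's title does not list) had Satb1 at 3.74, and Lactation had it at 1.06. The title lists Involution, a name that no tag of the sheet carries, so the identity of the HT2 sample is not settled.

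The tissue residency genes pointed the other way: all 11 compared had a positive log2 ratio, the median was 0.62, and 3 were at least 2-fold higher in Gestation. Rgs1, a regulator of chemokine receptor signalling typical of resident T cells (chromosome 1, GRCm38 positions 144244669 to 144249104), was at 5.79 (5.59 to 5.99) per 10000 in Nulliparous and 13.8 (13.4 to 14.3) in Gestation, 2.39-fold higher (2.28 to 2.50). Lactation was at 12.5 and Germ-free at 3.24, so the level in Gestation was near that in Lactation. The collagen-binding integrin Itga1 was at 2.32 against 4.66, 2.01-fold higher. It was under 2-fold with TMM scaling (log2 ratio 0.88), which left 2 of the 11 past the fold, and with doublet calls kept or scaling to all UMIs (0.98 in each). Itgae, whose protein binds E-cadherin on epithelium, was at 2.34 against 3.46, and its partner chain Itgb7 at 3.35 against 3.52, a ratio whose interval (0.97 to 1.13) includes 1. Xcl1, a chemokine that draws type 1 dendritic cells, was at 5.70 against 8.24.

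The cytotoxic genes had a median log2 ratio of 0.76, with 4 of 14 at least 2-fold higher and 13 of 14 above 0. All 4 past the fold were Ccl3, Ccl4, Ccl5, which encode chemokines, and Prf1, which encodes the pore-forming perforin. Ccl5 was at 62.7 per 10000 in Nulliparous and 137 in Gestation, and Ccl4 at 1.91 against 6.11, 3.19-fold higher (2.96 to 3.45). Granzyme A (Gzma) was at 51.6 against 80.6, whereas granzyme B (Gzmb) did not differ beyond counting error, at 8.94 (8.69 to 9.19) against 8.68 (8.35 to 9.02). In Lactation Gzma stood at 240 and Gzmb at 30.9, far above both.

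**Figure D2:**
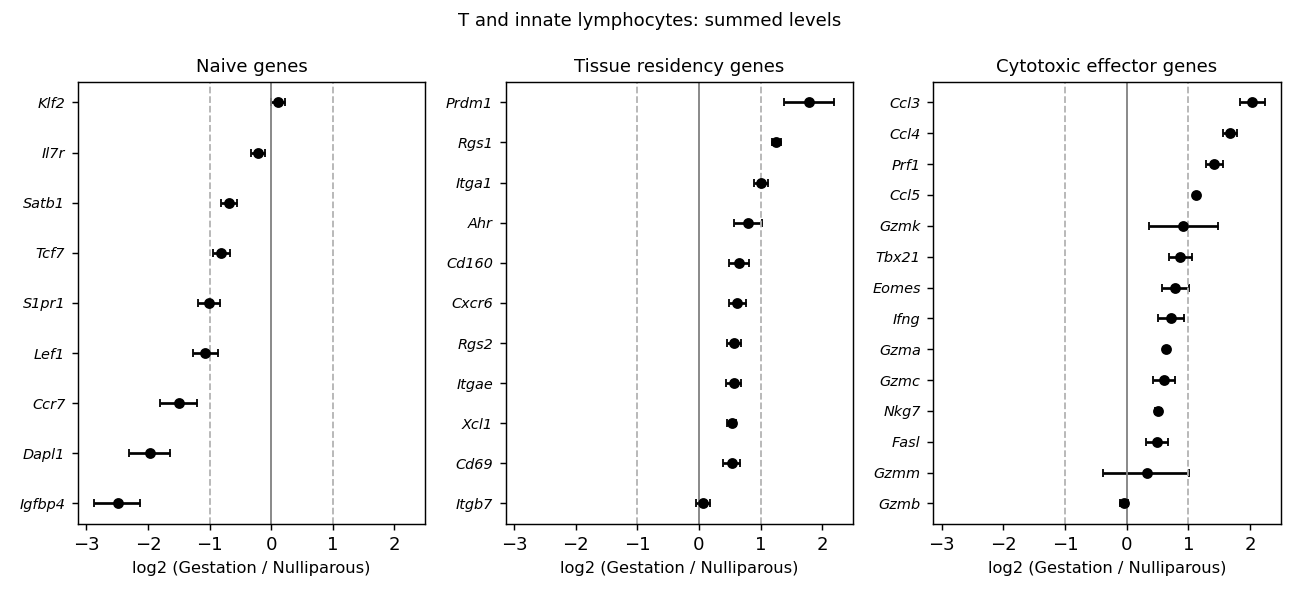
Log2 ratio of Gestation over Nulliparous for summed UMIs per 10000 in T and innate lymphocytes, for the compared genes of 3 lists (9 of the 10 naive genes). Points are ratios of 1 pooled sample to another, bars are exact 95% counting intervals, solid lines mark 0 and dashed lines mark 2-fold. Naive genes run from Klf2 at 0.11 to Igfbp4 at -2.49, while all 11 residency genes lie above 0.

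By size and counting precision, other genes higher in Gestation lymphocytes were Zeb2, a transcription factor of mature effector cells (0.32 against 1.20 per 10000, 3.71-fold), Arrdc4 (21 against 72 UMIs), Cpne7 (32 against 91) and Atp8a2 (16 against 57). Arrdc4 is a relative of Txnip, a glucose-responsive gene, which was at 2.46 against 4.28. Genes higher in Nulliparous lymphocytes included Ifitm1, an interferon-induced membrane protein gene, with 212 against 16 UMIs, or 0.38 against 0.05 per 10000. The remaining 3, Cenpf, Birc5 and Ccna2, belong to the cell division machinery.

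T-like cells alone held 2034 Nulliparous and 731 Gestation cells, and 3.17% of 6520 genes (207) differed by at least 2-fold, 1.75% higher in Gestation and 1.43% higher in Nulliparous. The clusters that made up the class were not the same in both samples. The cluster led by Dapl1, Igfbp4 and Lef1, naive T cell genes, was 54.5% of the Nulliparous T-like cells (1108 cells) and 24.8% of those of Gestation (181). The cluster led by Cd28, Bcl11b and Tcf7 was 32.2% (654) against 46.1% (337). The cluster led by Cd8b1, Cd8a and Cxcr6, a receptor of tissue T cells, was 13.4% (272) against 29.1% (213). Over the class, the coreceptors were nearly level: Cd8b1 was at 4.96 against 5.24 per 10000 and Cd4 at 1.28 against 1.43, both with intervals of the ratio that include 1.

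Over all T-like cells, the residency genes had a median log2 ratio of 1.00 (5 of 10 at least 2-fold higher in Gestation), the cytotoxic genes 1.03 (6 of 12) and the naive genes -0.56 (2 of 10 at least 2-fold lower). Rgs1 was at 2.12 (1.94 to 2.32) against 6.33 (5.75 to 6.96), and Ccl5 at 32.1 against 79.0. Cxcr3, the chemokine receptor of type 1 responses, was at 0.62 against 2.10, 3.39-fold higher. Gimap7, of a GTPase family of lymphocytes, was at 0.55 against 2.00, and Zeb2 had 23 against 49 UMIs, 7.16-fold higher after scaling (4.28 to 12.3). Id3, an inhibitor of E-protein transcription factors, had 156 against 9 UMIs, or 0.69 against 0.13 per 10000. Igfbp4 had 637 against 62, H2-Ob 59 against 3, Treml2 176 against 17 and Tgfbr3, a TGF-beta coreceptor, 75 against 5. Without the cluster of naive genes, the medians were 0.61 for residency, 0.50 for cytotoxic and -0.84 for naive genes. The genes past the fold were then 2 of 10 residency, 3 of 11 cytotoxic and 5 of 10 naive genes, Ccl5 was under 2-fold (log2 ratio 0.62), and 95 genes rather than 207 were past the fold.

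Within single T-like clusters the difference between the samples varied from gene to gene. The genes followed here were chosen after their values were seen. Inside the cluster of naive genes, Lef1 (5.67 in Nulliparous against 7.52 per 10000 in Gestation), Ccr7 (3.22 against 4.48) and Satb1 (8.49 against 9.01) were not lower in Gestation. Igfbp4, also of the naive list, was lower in Gestation there, at 4.67 against 3.21, and in the Cd28-led cluster, at 0.87 against 0.20. For Lef1, Ccr7 and Satb1 the lower level over the whole class went with the smaller share of the cluster of naive genes and with lower levels in the Cd28-led cluster. Ccl5 was higher in Gestation in every T-like cluster, at 4.92 against 19.9 in the cluster of naive genes, 21.9 against 50.8 in the Cd28-led and 142 against 171 in the Cd8b1-led cluster. Rgs1 was higher in all 3 as well, at 0.69 against 1.43, 3.22 against 7.02 and 4.92 against 9.52. Cxcr6 was lower in Gestation in the cluster of naive genes (62 against 3 UMIs, or 0.50 against 0.17 per 10000). It was higher in the Cd28-led (1.05 against 2.01) and the Cd8b1-led cluster (3.65 against 4.73). Id3 was lower in all 3, with 88 against 2, 45 against 3 and 23 against 4 UMIs. In the Cd28-led cluster Lef1 was at 1.82 against 1.17, Ccr7 at 1.61 against 0.60 and Satb1 at 5.36 against 2.31. In the Cd8b1-led cluster Satb1 was at 1.54 against 0.84, while Lef1 had 17 against 14 UMIs and Ccr7 8 against 2. These clusters were made with the same genes, so a level within them is partly set by where the cluster's edge fell.

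**Figure D3:**
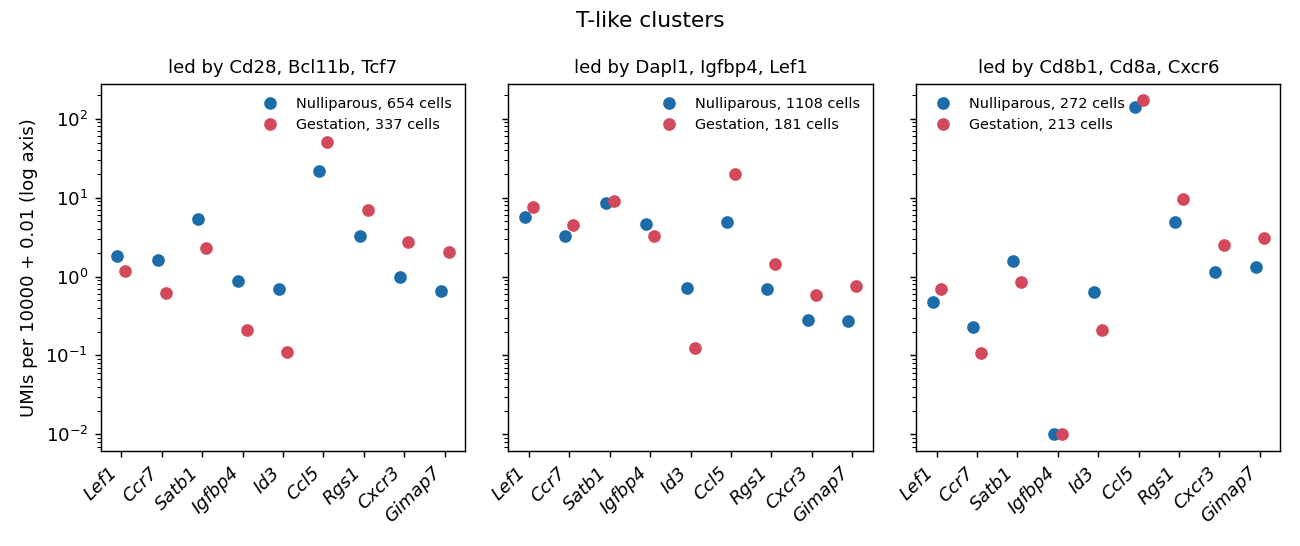
Summed UMIs per 10000 (0.01 added, log axis) of 9 genes in the 3 T-like clusters, for Nulliparous (blue) and Gestation (red). Points are 1 pooled sample each, the numbers of cells are in the legends, and the genes were chosen after their values were seen. In the middle panel Lef1 is at 5.67 against 7.52, while Rgs1 and Ccl5 are higher and Id3 lower in Gestation in all 3 panels.

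Summed over all T and innate lymphocytes, cell division genes were lower in Gestation. Of the 16 in the list, 11 were at least 2-fold lower and none was higher, with a median log2 ratio of -1.42. Of all genes compared there, 2.67% were at least 2-fold lower. Top2a, the topoisomerase that untangles replicated DNA, was at 2.40 (2.28 to 2.54) per 10000 in Nulliparous and 0.67 (0.58 to 0.77) in Gestation. Stmn1, a microtubule regulator, was at 3.26 against 1.06 and Tubb5 at 6.47 against 3.45. The histone variant gene H2az1 differed least of the 5 most abundant, at 8.03 against 7.03. For all 16 genes Gestation was the lowest of the 4 samples of the library. Top2a was at 1.11 in Germ-free and 3.09 in Lactation. Within the classes, which leave out the cluster led by division genes, the list differed less. Its median log2 ratio was 0.12 in T-like cells (1 of 9 genes at least 2-fold higher, 0 lower). It was -0.16 in NK-like cells (0 of 5 past the fold) and -0.55 in Gzmb/Itgae cells (0 of 9 higher, 3 lower).

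The low level over all lymphocytes went with few cells in division. Cells with at least 2 UMIs of 9 cell cycle genes after thinning, a cut chosen after the data were seen, were 4.15% (3.54 to 4.82) of Nulliparous and 1.03% (0.69 to 1.48) of Gestation T and innate lymphocytes. Among myeloid cells the shares were 2.87% (2.02 to 3.95) and 2.88% (1.92 to 4.14). In the dividing cluster itself, cells with a UMI of Cd3e were 57.3% in Nulliparous and 53.1% in Gestation, and cells with Cd8a 29.2% and 32.7%. Itgae was found in 38.0% of the 274 Nulliparous and 14.3% of the 49 Gestation cells of that cluster, and Gzmb in 52.9% and 36.7%, with median depths of 3488 and 2720 UMIs.

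NK-like cells differed little in their genes although their share was 2.34-fold larger. Only 0.924% of 3463 genes (32) were past 2-fold between 345 Nulliparous and 576 Gestation cells, 0.549% higher in Gestation and 0.375% higher in Nulliparous. The cytotoxic genes had a median log2 ratio of 0.29, with 1 of 12 past the fold and 0 of 11 with HTODemux calls. Prf1 was at 11.1 (10.1 to 12.2) against 13.8 (12.9 to 14.8), Gzma at 87.8 against 106 and Ccl5 at 117 against 159. Higher in Gestation were Klrg1, an inhibitory receptor of mature NK cells (19 against 77 UMIs, 2.77-fold after scaling, 1.66 to 4.85), Nrip1 (29 against 91) and Lamtor5 (25 against 80). Higher in Nulliparous were Lgals3, which encodes galectin-3 (2.88 against 0.87), Emb (2.61 against 1.29), Capg (1.03 against 0.42), Laptm4a (0.90 against 0.40) and Cd3d (1.47 against 0.69). Of the 60 Cd3d UMIs in Nulliparous NK-like cells, 18.3% came from 1 cell, and the log2 ratio of -1.10 was -0.89 with doublet calls kept and -0.41 with HTODemux calls. Laptm4a was under 2-fold, at -0.97, with doublet calls kept, and Emb lay just under it with TMM scaling and with the mean of cells.

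The Gzmb/Itgae cells, 703 in Nulliparous and 1172 in Gestation, had 3.4% of 6286 genes (214) past 2-fold, 160 (2.55%) higher in Gestation and 54 (0.859%) higher in Nulliparous. The cluster held cells of more than 1 kind: Cd3e was found in 52.3% of Nulliparous and 39.5% of Gestation cells, Klrb1c (NK1.1) in 55.6% and 46.1%, Ncr1 in 20.1% and 20.5%, Trdc in 11.7% and 7.85%, and Eomes, which conventional NK cells need, in 2.84% and 1.62%. These shares are unthinned, and the median depth was 2123 UMIs in Nulliparous and 1287 in Gestation. Rgs1 was at 13.5 (12.9 to 14.2) per 10000 against 24.1 (23.2 to 24.97), Itga1 at 5.96 against 9.03 and Ccl5 at 123 against 186. Gzmb was the other way, at 27.0 (26.1 to 27.9) against 15.5 (14.8 to 16.2), while Gzma was nearly level at 129 against 126. Over all lymphocytes Gzmb was level, with a larger share of Gzmb/Itgae cells in Gestation and a lower level within them.

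Higher in Nulliparous Gzmb/Itgae cells were S100a4, a calcium-binding protein gene of activated and migrating cells (8.86, 8.35 to 9.40, against 2.39, 2.13 to 2.67), the actin-capping gene Capg (2.81 against 0.74), the cell cycle kinase gene Cdk6 (1.86 against 0.48), Ifitm1 (123 against 10 UMIs) and Stmn1 (98 against 8). Higher in Gestation were Lpar6, a receptor of lysophosphatidic acid (0.44 against 1.44, 3.25-fold), Arrdc4 (10 against 54 UMIs) and Cpne7 (7 against 46). Arrdc4, Cpne7 and Ifitm1 are thus named both over all lymphocytes and in this cluster, which is part of them.

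The counts of other lymphocyte lists are given beside the share over all genes, 4.61% past the fold in T and innate lymphocytes. Of the regulatory T cell genes 1 of 10 was at least 2-fold higher in Gestation and 2 lower, against 1.94% and 2.67% of all genes. Among them Ikzf2 was at 1.54 against 1.84 and Tnfrsf18 at 1.11 against 1.36. With TMM scaling and with HTODemux calls, 0 of the 10 were higher and 4 lower. Foxp3, the defining gene of regulatory T cells, chosen here after its value was seen, had 77 against 17 UMIs, or 0.14 against 0.06 per 10000. None of 11 STAT5 and SOCS genes, which follow prolactin and cytokine receptors, was past the fold: Cish was at 1.53 against 1.51, Bcl2 at 4.33 against 5.16 and Pim1 at 1.87 against 2.47. The prolactin receptor gene Prlr had 6 UMIs in Nulliparous and 3 in Gestation lymphocytes, and the progesterone receptor gene Pgr had 0 in both, which allows at most 3 UMIs in either. None of 11 steroid receptor and glucocorticoid target genes was past it either, with the glucocorticoid receptor gene Nr3c1 at 1.15 against 1.90. Of the cytokine receptor genes 1 of 8 was, Il18rap, an IL-18 receptor chain, at 0.86 against 1.83. It too was under 2-fold with TMM scaling (log2 ratio 0.97) and with the mean of cells (0.89), which leaves 0 of 8 with TMM scaling. Il2rb, which binds IL-2 and IL-15, was at 7.71 against 11.4. None of 13 interferon-stimulated genes was past the fold, with Ifi27l2a at 3.96 against 2.75. In T-like cells all 16 immediate early genes compared had a positive ratio and 6 were at least 2-fold higher, against 1.75% of all genes there. Klf6 was at 3.19 against 6.46 and Btg2 at 2.29 against 4.38. That list also holds the heat shock genes Hspa1a and Hspa1b, and Hspa1a, 3.44-fold higher, was among the 6. With TMM scaling 4 of the 16 were past the fold, and Klf6 was not (log2 ratio 0.91, and 0.97 with the mean of cells).

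B-like cells, 1078 in Nulliparous and 655 in Gestation, had 1.78% of 3922 genes (70) past the fold, 0.816% higher in Gestation and 0.969% higher in Nulliparous. The antigen-presenting genes were level: none of 11 was past it, and Cd74 was at 69.8 (68.0 to 71.6) against 71.4 (69.1 to 73.9). All 8 immunoglobulin constant genes compared had a positive ratio, with a median log2 of 0.28 and none past 2-fold. Ighm was at 41.9 (40.5 to 43.4) against 55.4 (53.3 to 57.6) and Igkc at 92.8 against 117. The maturation genes had a median of 0.07, with Fcer2a at 5.97 against 6.40. Nr4a1, which B cells switch on after antigen binding, was higher in Nulliparous, at 2.92 (2.56 to 3.31) against 0.99 (0.73 to 1.32). Kdm6b, a histone demethylase gene (2.43 against 1.06), Hexim1 (1.91 against 0.82), Gch1 (0.85 against 0.28) and Mrpl42 (47 against 6 UMIs) were higher in Nulliparous as well. Klf6 (2.19 against 4.81) and Ahnak (1.01 against 2.41) were higher in Gestation. With doublet calls kept, Klf6, Ahnak, Kdm6b and Hexim1 kept their direction but were under 2-fold.

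Plasma-like cells, 224 and 141, are taken with reserve, since 61.6% of those of Nulliparous and 50.4% of those of Gestation held at least 2 UMIs of markers of another lineage. Of 10 immunoglobulin constant genes compared, 2 were at least 2-fold higher in Gestation (Ighg2b and Iglc3) and 1 lower (Ighg1). Igha, the heavy chain of IgA, was at 1660 against 1683 per 10000, Jchain at 418 against 430 and Igkc at 2978 against 2842. Of the lambda light chains, Iglc1 was at 574 against 879, 1.53-fold higher, and Iglc3 at 8.52 (8.07 to 8.99) against 20.8 (19.9 to 21.7), 2.44-fold higher. For Iglc3 22.3% of the Gestation UMIs lay in 1 cell, and the log2 ratio of 1.29 was 0.82 with the mean of cells. Of the IgG genes, 95.6% of the Ighg1 UMIs of Nulliparous and 79.9% of the Ighg2b UMIs of Gestation came from 1 cell each. Among 3215 genes 4.2% (135) were past the fold, 30 (0.933%) higher in Gestation and 105 (3.27%) higher in Nulliparous. Those named by size were macrophage or dendritic cell genes in Nulliparous (Lyz2 at 12.0 against 1.22, Cd63, Lgals3, Vcam1 and Dnase1l3) and, in Gestation, 3 T and NK cell genes (Ccl5 at 4.45 against 12.8, Cd7 and Klrb1c) and 2 heat shock genes (Hspa1b with 90 against 108 UMIs and Hsph1 with 24 against 36). With doublet calls kept all 5 were under 2-fold, with log2 ratios of 0.65 for Ccl5, 0.44 for Cd7, 0.75 for Klrb1c, 0.58 for Hspa1b and 0.74 for Hsph1. The part of the other-lineage markers in them was not tested, as under 100 plasma-like cells without such markers were left in a sample.

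Macrophage-like cells, 404 in Nulliparous and 526 in Gestation, had the largest share of genes past 2-fold of the 9 lineages and groups compared, 5.01% of 4969 (249), with 2.46% higher in Gestation and 2.56% higher in Nulliparous. At least 2 UMIs of another lineage's markers were found in 36.9% of the Nulliparous and 11.8% of the Gestation cells, and the median depth was 2592 against 1522 UMIs. The gene lists below were also summed without those cells, and their part in the shares and lists is given by the values without them. Leaving them out, macrophage-like cells were 4.31% of Nulliparous and 10.6% of Gestation cells.

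The genes of stromal-type macrophages, which lie in connective tissue and take up debris, were lower in Gestation: 5 of 8 were at least 2-fold lower, with a median log2 ratio of -1.39 (-1.42 without the cells with other markers). The mannose receptor gene Mrc1 was at 1.89 (1.63 to 2.17) per 10000 against 0.59 (0.43 to 0.79). The clotting factor gene F13a1 was at 1.33 against 0.36, the chemokine gene Pf4 at 3.91 against 2.04 and Cbr2 at 0.68 against 0.32. The transcription factor gene Maf was at 1.53 against 1.28, with an interval of the ratio (0.64 to 1.08) that includes 1. For all 8 genes Gestation was the lowest of the 4 samples, with Mrc1 at 6.32 in Germ-free and 3.85 in Lactation. The cluster led by Pf4, Ccl8 and Folr2 was 12.1% of Nulliparous macrophage-like cells (49) and 2.66% of those of Gestation (14). Within it the levels lay closer, with Mrc1 at 14.6 against 11.6, F13a1 at 11.7 against 8.06 and Pf4 at 31.5 against 33.8.

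The genes of ductal-type macrophages, which lie along the epithelium, had a median log2 ratio of 0.63 (0.43 without the cells with other markers), with 2 of 11 at least 2-fold higher in Gestation and 2 lower. Without the cells with other markers, and with HTODemux calls, 4 were higher and 2 lower. Mmp12, which encodes macrophage elastase (chromosome 9, GRCm38 positions 7344397 to 7360461), was at 3.26 (2.92 to 3.62) per 10000 in Nulliparous and 12.4 (11.6 to 13.2) in Gestation. Germ-free was at 2.57 and Lactation at 3.23, so Gestation stood apart from the other 3 samples. Apoe, the lipid carrier, was at 222 against 227. Ctsd, the gene of the lysosomal protease cathepsin D, was at 6.82 (6.33 to 7.34) against 2.53 (2.19 to 2.91). Mmp12 was higher in Gestation within the cluster led by Apoe (3.92 against 14.4) and within that led by C1qa (2.07 against 7.98). In the Pf4-led cluster it rested on 10 against 4 UMIs.

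S100a4 (chromosome 3, GRCm38 positions 90603770 to 90606045) had 644 UMIs in Nulliparous against 53 in Gestation macrophages. It was at 6.20 (5.73 to 6.70) per 10000 in Nulliparous and 0.70 (0.52 to 0.91) in Gestation, 8.88-fold lower, against 3.75 in Germ-free and 1.55 in Lactation. It was lower in all 3 macrophage-like clusters, at 6.61 against 0.39 in the Apoe-led, 5.77 against 1.37 in the C1qa-led and 4.29 against 2.58 in the Pf4-led cluster. C3, the complement gene (60 against 4 UMIs), Mt2, a metallothionein gene (56 against 5), and Retnla (456 against 46, with 19.5% of the Nulliparous UMIs in 1 cell) were higher in Nulliparous. So was Lef1, a T cell gene, with 56 against 4. The naive lymphocyte genes as a list had a median of -1.41 in macrophage-like cells and of -0.08 (3 genes) without the cells with other markers. Msmo1, a cholesterol synthesis gene (16 against 53 UMIs), and Adrb1, an adrenaline receptor gene (13 against 45), were higher in Gestation.

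Antigen presentation genes were slightly higher in Gestation macrophages, with a median log2 ratio of 0.26 and none of 11 past 2-fold. Cd74 was at 154 (152 to 157) against 206 (203 to 209) and H2-Aa at 90.1 against 109. The chemokine genes of myeloid cells had 2 of 11 higher and 3 lower by 2-fold, with a median of -0.20. Without the cells with other markers the median was 0.37 and with HTODemux calls 0.23, each with 3 of 8 genes higher and 1 lower. Ccl4 was at 5.96 (5.50 to 6.45) against 15.0 (14.2 to 15.9) and Ccl3 at 2.91 against 6.89, while Cxcl16 was at 6.68 against 7.62. Both Ccl3 and Ccl4 were higher in Gestation within the Apoe-led cluster, at 3.61 against 9.04 and 7.55 against 19.0. Of the immediate early genes of macrophages 5 of 15 were at least 2-fold higher in Gestation. Among the 5 were Jun, at 5.60 against 11.8, and Egr1, at 3.01 against 6.29. The heat shock genes Hspa1a (3.54-fold) and Hspa1b (3.63-fold), which the list also holds, were among them too. Fos was at 8.65 against 9.11. With doublet calls kept Jun and Egr1 were under 2-fold (log2 ratios 0.93 and 0.91), as was Egr1 with the mean of cells (0.84). The inflammatory cytokine gene Il1b was at 5.71 against 8.90. Among lipid genes Lpl, lipoprotein lipase, was at 1.85 against 3.52 and Plin2, a lipid droplet gene, at 4.65 against 2.83.

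**Figure D4:**
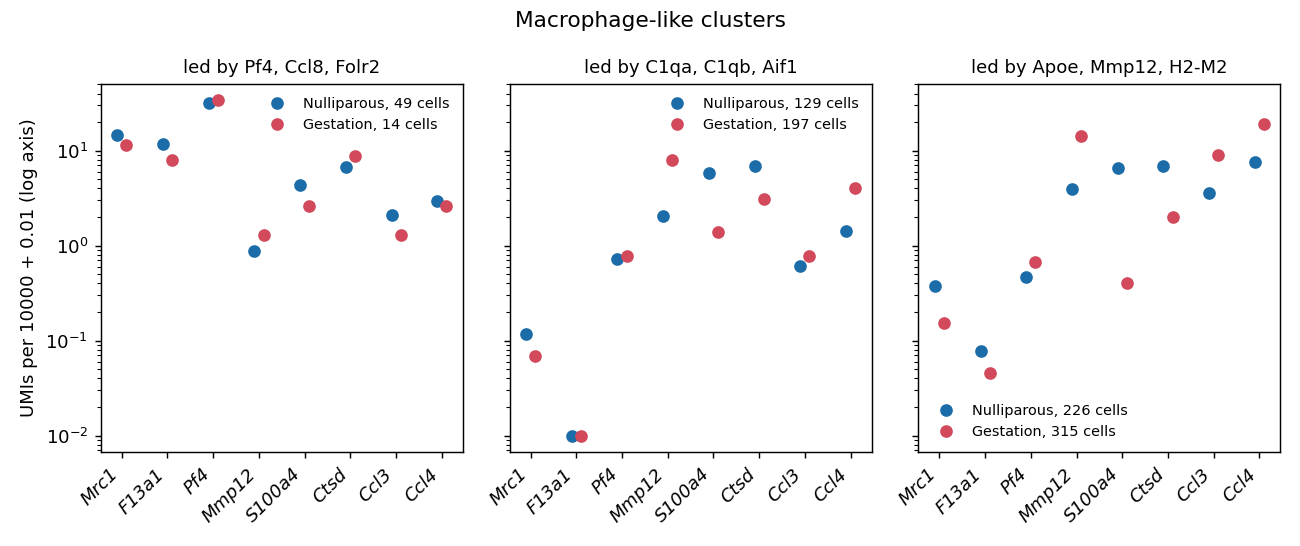
Summed UMIs per 10000 (0.01 added, log axis) of 8 genes in the 3 macrophage-like clusters, for Nulliparous (blue) and Gestation (red). Points are 1 pooled sample each, the numbers of cells are in the legends, and the genes were chosen after their values were seen. Mmp12 is higher and S100a4 lower in Gestation in the C1qa-led and Apoe-led clusters, with S100a4 at 6.61 against 0.39 in the latter.

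Over all myeloid cells 2.92% of 8105 genes (237) were past the fold, 1.17% higher in Gestation and 1.75% higher in Nulliparous. Apol7c and Fabp5, leading genes of the migratory dendritic cell-like cluster, were higher in Nulliparous: Apol7c had 258 against 11 UMIs and Fabp5, a fatty acid carrier gene, 597 against 68. Mcpt4, a mast cell protease gene, had 421 against 35, with 18.3% of the Nulliparous UMIs in 1 cell, and there were 9 mast cell or basophil-like cells against 1. Rgcc had 54 UMIs against 1, a ratio of Gestation over Nulliparous of 0.034 (0.00086 to 0.20). Lef1 had 98 against 7. Higher in Gestation, beside Mmp12 (1.58 against 6.28), was the cholesterol synthesis gene Idi1 (21 against 47 UMIs, 4.17-fold after scaling, 2.45 to 7.35). With Msmo1 in macrophages, 2 of the genes named for Gestation myeloid cells belong to that pathway, which was not among the lists and is named here after the values were seen.

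Monocyte-like cells, 228 and 174, had 1.84% of 2008 genes (37) past the fold, 0.946% higher in Gestation and 0.896% higher in Nulliparous. Their antigen presentation genes were lower in Gestation, with a median log2 ratio of -0.56 and none of 8 past 2-fold. H2-Eb1 was at 19.9 against 10.6 and Cd74 at 40.3 against 29.6. C1qa (54 against 13 UMIs) and C1qb (94 against 26), macrophage markers, were higher in Nulliparous, as were Ubr2 and Rtraf, although C1qa, C1qb and Rtraf were under 2-fold (log2 ratios of -0.96, -0.91 and -0.70) with doublet calls kept. Ccl5 (7.26 against 16.2), Tgfbr1, a TGF-beta receptor gene (0.69 against 2.15), and Tmcc1 (2.19 against 4.98) were higher in Gestation. For Ccl5 12.7% of the Gestation UMIs lay in 1 cell, and with doublet calls kept its log2 ratio was 0.01. At least 2 UMIs of another lineage's markers were found in 18.4% of Nulliparous and 8.62% of Gestation monocyte-like cells.

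The inducible heat shock genes Hspa1a and Hspa1b, which encode HSP70 chaperones, were higher in Gestation in every class compared. Hspa1a was at 0.60 (0.44 to 0.79) per 10000 in Nulliparous B-like cells and 4.94 (4.33 to 5.62) in those of Gestation, 8.30-fold higher (6.08 to 11.5). In T-like cells it was at 0.91 against 3.12, in NK-like cells at 0.22 against 1.10 and in Gzmb/Itgae cells at 0.36 against 1.75. In macrophage-like cells it was at 2.26 (1.98 to 2.57) against 8.01 (7.39 to 8.68), in monocyte-like cells at 3.18 against 12.2 and in plasma-like cells at 0.59 against 1.03. Gestation was the highest of the 4 samples of the library in 7 of 7 classes for Hspa1a and 7 of 7 for Hspa1b, with Hspa1a in B-like cells at 1.36 in Germ-free and 2.85 in Lactation. Hsph1, another chaperone gene, was at 0.68 against 1.86 in B-like cells and was the highest in Gestation in 5 of 7 classes. Within single macrophage clusters the order was not always the same. Hspa1a was at 2.45 against 10.4 in the Apoe-led cluster and at 0.54 against 0.89 (10 against 15 UMIs) in the C1qa-led, but at 3.86 against 2.90 (44 against 9 UMIs) in the Pf4-led. Hspa1b was at 2.07 against 9.50 in the Apoe-led, 1.36 against 1.31 in the C1qa-led and 3.07 against 3.55 in the Pf4-led cluster. The labels describe the digestion once for all samples, and the part of handling before pooling in the heat shock and immediate early values was not tested.

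Hspa1a and Hspa1b lie near each other on chromosome 17, at GRCm38 positions 34969359 to 34972156 and 34956429 to 34959238, and are nearly identical, so that how their UMIs were split between them is uncertain. Their promoters are shown because heat shock genes are switched on through short heat shock elements read by the factor Hsf1. The window of 300 bases around the start of Hspa1a (RefSeq, GRCm38.p6, chr17:34972107-34972406, minus strand) is given with 1 match to GAANNTTC or TTCNNGAA in capitals, the inner part of such an element, 104 bases before the start site.
Hspa1a promoter: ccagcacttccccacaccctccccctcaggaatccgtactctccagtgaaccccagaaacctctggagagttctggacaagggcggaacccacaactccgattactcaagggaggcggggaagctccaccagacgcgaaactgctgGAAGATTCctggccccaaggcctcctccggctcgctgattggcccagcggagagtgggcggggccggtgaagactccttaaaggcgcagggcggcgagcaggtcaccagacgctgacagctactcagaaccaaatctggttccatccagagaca
The window of Hspa1b (chr17:34959189-34959488, minus strand) differs from it at 4 positions and holds the same match at the same distance. Both strands were searched, and 4073 of 27025 mouse promoter windows of this length, or 15.1%, hold at least 1 match, so that a match is common and is a description only.

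**Figure D5:**
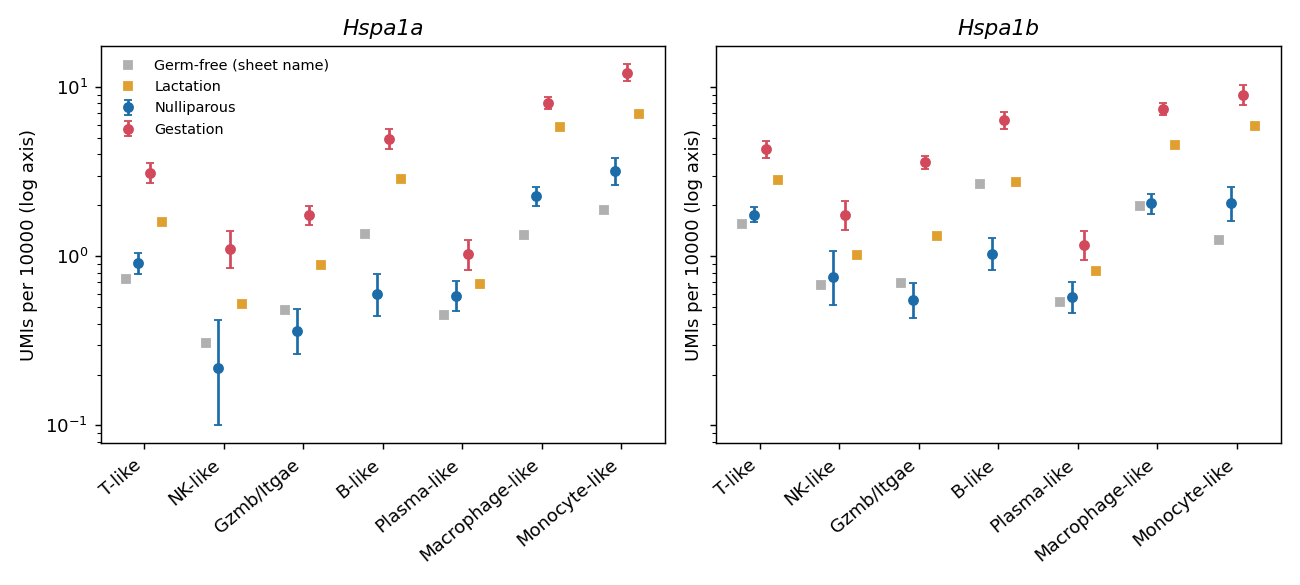
Summed UMIs per 10000 (log axis) of Hspa1a (left) and Hspa1b (right) in 7 classes of cells, for Germ-free, Nulliparous, Gestation and Lactation of the earlier library. Points are 1 pooled sample each, and bars, drawn for Nulliparous and Gestation, are exact 95% Poisson intervals that cover counting error only. Gestation (red) is the highest point in all 7 classes in both panels.

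Milk protein genes, which epithelial cells make, were counted in the sums of immune cells too. In macrophage-like cells 5 of 7 were at least 2-fold higher in Gestation. Wap, whey acidic protein, was at 2.46 (2.16 to 2.78) per 10000 in Nulliparous, 10.2 (9.53 to 11.0) in Gestation and 3.91 in Lactation. Csn2, beta-casein, was at 3.80, 8.74 and 3.98, and under 2-fold (log2 ratio 0.98) with the mean of cells. Gestation was the highest of the 4 samples for all 8 milk genes in macrophage-like cells. The summed milk UMIs were 4.32 a macrophage-like cell in Nulliparous and 5.98 in Gestation, against 1.68 and 1.56 a T-like cell. In T and innate lymphocytes none of the 8 was past the fold, and Csn2 was at 3.98 against 5.07. The part of free RNA and of engulfed material in these values was not tested. Haemoglobin UMIs came from few cells: of the 795 Hbb-bs UMIs of Nulliparous macrophage-like cells 56.1% lay in 1 cell, and of the 382 of Gestation B-like cells 99.5%.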

How the data were processed

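The gene files hold UMI counts per droplet and the tag files counts per hash tag, as deposited by the authors. The submitters' processing notes name Cell Ranger 6.1.0 and the mouse build mm10. The header of the earlier library's matrix names an earlier Cell Ranger version, so which version made it is not settled. Both groups are 1 pooled sample each, with no replicate, so differences are given as values with exact Poisson or binomial 95% intervals (ratios by the conditional binomial, differences of shares by Newcombe's method) and no test. Doublets were called with Scrublet and cells clustered with Leiden in scanpy 1.11.5 (2000 variable genes, 30 components, 15 neighbours, resolution 1.0, 26 clusters). Clusters were named from fixed markers, with score limits of 0.45 and 0.25 set after the clusters were seen. UMIs were summed per lineage with at least 100 cells a sample and scaled to 10000, leaving out 1 entry (CT010467.1) that held 17.6% of UMIs. Genes with at least 50 UMIs over both samples were compared, and at least 2-fold counted as past the fold.

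Named were up to 5 genes a direction and lineage, ranked by the interval bound nearest 1, with no more than 20% of UMIs in 1 cell and without antibody and T cell receptor segments, mitochondrial, ribosomal, haemoglobin, milk and provisional genes. Up to 5 of the most abundant members of each list were named too. Other genes named were chosen after their values were seen, and a few that the rule names are not reported here. Of 286 list symbols 285 matched. Members and lists were chosen with earlier results of these data known. Alternatives used R 4.3.3, edgeR 4.0.16 (TMM only) and Seurat 5.3.0 (HTODemux, quantile 0.99), and intervals scipy 1.17.1. The gene sums were also run on simulated Poisson counts, which follow the counting model of the intervals. That run held no clumping of UMIs in single cells, so it cannot show how the sums fare with it. The other tags and the rest of the later library were not analysed here beyond the values given.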

Additional observations from a re-analysis of the deposited data

Results flagged for a closer look

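The tag file of the library also counted tags that its sheet does not name. HT1 had 1961 counts, with 3 cells at 10 or more and at most 35 in 1 cell. Tag reads listed as unmapped came to 507371 counts, 14.6% of the tag counts, with 9796 cells at 10 or more and up to 1633 in 1 cell. Neither entered the assignment of cells to Nulliparous or Gestation.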

How the results depend on the processing

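No paired analysis was possible because each group is 1 pooled sample, and there was no replicate to leave out. The number of genes past 2-fold moved most with the UMI minimum, in the order T and innate lymphocytes, myeloid, T-like, NK-like, Gzmb/Itgae, B-like, plasma-like, macrophage-like and monocyte-like cells. With at least 20 UMIs it was 862, 609, 631, 283, 593, 379, 527, 722 and 273. With at least 200 UMIs it was 125, 59, 31, 0, 38, 8, 34, 50 and 3. Taking the mean of cells in place of sums gave 398 myeloid and 59 monocyte-like genes. Clusters at resolution 2.0 gave 74 monocyte-like genes, and the stricter tag rule (20 counts, 3 times the next) 21 NK-like genes. T-like cells without the cluster of naive genes gave 95.

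The myeloid difference in share was -0.44 points under the stricter tag rule. Type 2 innate lymphoid cells, 1.21% of Gestation and 0.819% of Nulliparous cells, differed by -0.24 points at resolution 0.5 and by -0.18 at resolution 2.0. Without cells with other-lineage markers the differences were -0.90 points for T and innate lymphocytes and 3.64 for myeloid cells. The cause of these moves was not tested, beyond the settings' own construction.

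Of 90 named gene and lineage pairs, all kept their direction and 89 stayed past 2-fold with TMM scaling, which lowered all log2 ratios by 0.13 in T and innate lymphocytes, 0.11 in T-like and 0.16 in Gzmb/Itgae cells. With doublet calls kept 90 kept direction and 75 stayed past the fold, and with HTODemux 80 and 79 of 80, where 76 cells had no cluster. Leaving out other-lineage markers kept 71 and 70 of 71. Clusters without list genes, T-like cells without the cluster of naive genes, gene sums with HTODemux and leaving out cells with other-lineage markers were chosen after seeing the data. Genes at few UMIs carry wide intervals.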

Other observations

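Plasmacytoid dendritic cell-like cells were 24 of the Nulliparous and 9 of the Gestation cells, neutrophil-like cells 110 and 51, and type 2 dendritic cell-like cells 148 and 72. The cluster led by Icos, Il7r and Blk held 160 and 79 cells, and the cluster led by Ctla2a, Klrk1 and Tcf7, which was named neither T-like nor NK-like, 202 and 127. Non-immune cells led by Fabp4, Wap and Csn3 were 35 and 32. Among T-like cells the share of genes past 2-fold was 1.61% between Gestation and Lactation and 6.95% between Nulliparous and Lactation, against 3.17% between Nulliparous and Gestation, comparisons that share samples.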
